A study of Mus musculus with 3 samples.

Results

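The 62 genes described here encode parts of the lysosome and of the autophagy machinery, and they were examined for Setd1a binding in quiescent adult neural stem cells (NSCs) of the mouse. They were taken by name from the 20807 protein-coding genes that the GENCODE M21 annotation places on chromosomes 1 to 19, as the V-ATPase subunits (*Atp6v0* and *Atp6v1*), the numbered *Atg* genes, *Ctsa*, *Ctsb*, *Ctsd*, *Ctsl*, *Lamp1*, the *Gabarap*, *Map1lc3* and *Wipi* genes, *Tfeb*, *Mitf*, *Ulk1*, *Ulk2*, *Becn1*, *Sqstm1*, *Mcoln1*, *Npc1* and *Npc2*. The name rule also took *Atp6v1fnb*, a neighbour of *Atp6v1f* that is no pump subunit, and *Atg4a-ps*, which is a pseudogene by its name but is annotated as protein-coding. *Tfe3*, *Lamp2* and *Atg4a* lie on chromosome X and were not included.

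Setd1a was mapped by CUT & RUN, a method in which permeabilized cells are given an antibody against the protein of interest, and a nuclease tethered to that antibody releases short DNA fragments from the sites where it sits. NSCs came from the dentate gyrus of Hopx-CreERT2::Setd1afl/fl::H2B-GFP mice of 7 to 8 weeks, are labelled WT, and were kept until day 5 in medium without EGF with BMP4 and FGF2, each at 20 ng/ml, which makes them quiescent. The floxed *Setd1a* alleles are therefore carried by all libraries, and the labels name no Cre or control virus for these cultures. 2 libraries made with a Setd1a antibody, from cultures grown independently, and 1 library made with rabbit IgG as control were sequenced, and the values analysed are the positions of the 6969 peaks that were found in both Setd1a replicates. The list has no height, read count or replicate column, so the depth is unknown, no spread between replicates could be given, and a gene without a peak is a gene for which this list holds none. Confidence intervals below cover counting error over genes only.

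Lysosomes are acidified by the V-ATPase, a rotary proton pump whose membrane sector (V0) conducts protons and whose cytosolic sector (V1) hydrolyses ATP. In autophagy a membrane sac forms around cytoplasm, is decorated with lipid-linked Atg8 proteins by a ubiquitin-like conjugation system, and fuses with the lysosome, where cathepsins and other hydrolases digest the content. Transcription of many of these genes is driven by the MiT/TFE factors, of which Tfeb and Mitf are members, through E-box sequences near their start sites. Setd1a is a methyltransferase for lysine 4 of histone H3, a mark of active promoters, and quiescent NSCs are known for their large lysosomal compartment.

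A Setd1a peak lay within 1000 bp of an annotated transcription start site (TSS) at 24 of the 62 genes. This is 38.7%, with 27.6% to 51.2% as the 95% confidence interval by Wilson's method. Among all protein-coding genes of the same chromosomes the share was 22.5% (4682 of 20807). At 19 of the 62 genes the peak overlapped a TSS, or 30.6% (20.6% to 43.0%), against 17.2% of all genes. Widening the window to 3000 bp gave 26 genes, or 41.9%, against 24.1% of all genes. The genes had a median of 5 distinct TSSs (range 1 to 16) and all protein-coding genes a median of 3. The median was 5 at the genes with a peak and 4.5 at those without. The part of TSS number in the share was not tested. With only 1 TSS per gene, the 5′ end of the gene record, 22 genes had a peak, or 35.5%, against 20.6% of all genes.

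The share was higher at CpG-rich promoters than at CpG-poor ones. In 1000 bp around the start of the gene record, 43 of the 62 genes (69.4%) had an observed to expected CpG ratio of at least 0.6, here called CpG-rich, against 47.2% of all protein-coding genes. A peak was present at 22 of the 43 CpG-rich genes, or 51.2% (36.8% to 65.4%), and at 40.1% of all CpG-rich genes, a value inside this interval. Of the 19 CpG-poor genes 2 had a peak, or 10.5% (2.94% to 31.4%), against 6.81% of all CpG-poor genes. CpG-rich windows were found at 22 of the 24 genes with a peak, or 91.7%, and at 84.0% of all protein-coding genes with a peak. The interval of each CpG class holds the share of all genes of that class, and the CpG-poor share rests on 2 genes. The part of CpG content in the higher share was not tested.

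The 2 CpG-poor genes with a peak were *Atg4b* and *Gabarap*. In *Atg4b* it lay at a TSS inside the gene record, 3488 bp from its 5′ end. The *Gabarap* peak covered the 5′ end of the gene record and reached a TSS 496 bp inside it, the one nearest the midpoint of the peak. The peaks themselves had CpG ratios of 1.16 and 0.80. When a gene was counted as CpG-rich if any of its TSSs lay in such a window, all 24 genes with a peak were among the 53 CpG-rich ones, a share of 45.3% against 38.7% of all genes of this kind. None of the remaining 9 genes had a peak (0%, interval 0% to 29.9%), against 3.56% of all genes without a CpG-rich TSS.

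**Figure D1:**
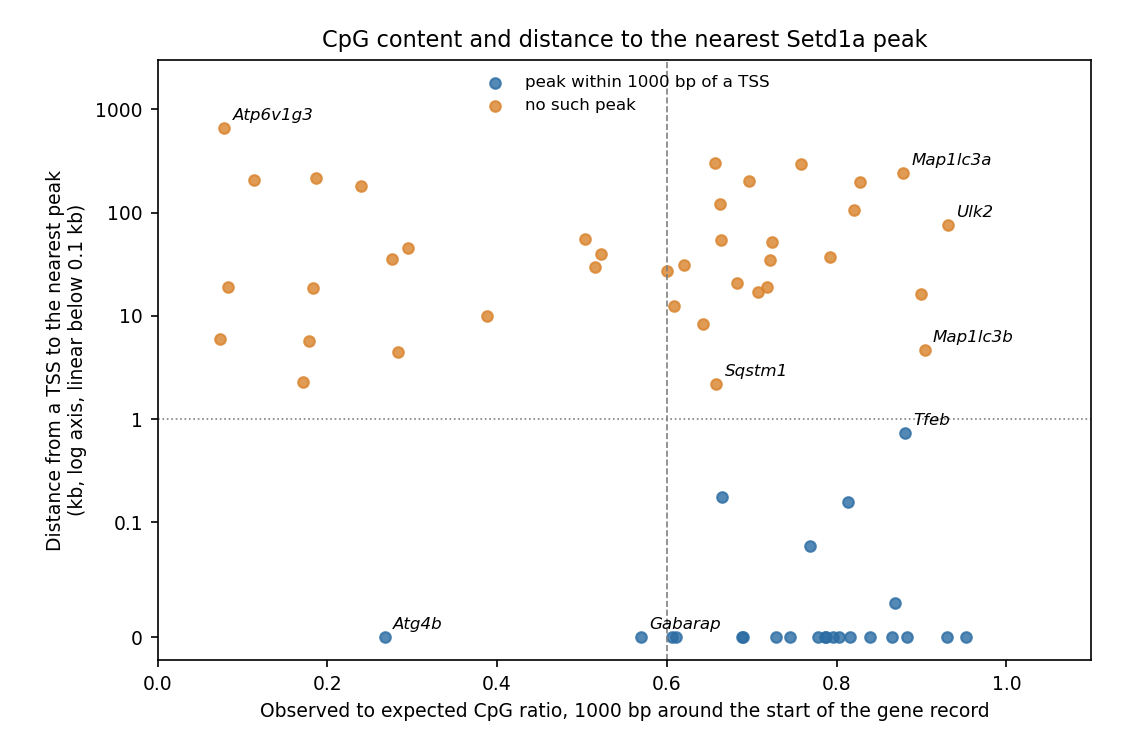
Each of the 62 genes is a point, placed by the observed to expected CpG ratio around the start of its gene record and by the distance in kb from a TSS to the nearest Setd1a peak (log axis, linear below 0.1 kb). The dotted line marks 1 kb and the dashed line a ratio of 0.6; blue points are the 24 genes with a peak within 1000 bp, of which 22 lie right of the dashed line, and orange points are the 38 others.

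The intervals at the 24 genes were ordinary in size and place. Their widths ran from 241 bp (*Atg13*) to 1507 bp (*Atg2a*), and the median was 474.5 bp (quartiles 370 and 696 bp), whereas the median over all protein-coding genes with a peak was 546 bp (376 and 781 bp). The peak overlapped a TSS at 19 of the 24 genes (79.2%), lay upstream at 2 (*Atp6v0b* and *Atg13*) and downstream at 3 (*Lamp1*, *Mitf* and *Tfeb*). Over all protein-coding genes with a peak, 76.3% had it over a TSS, 14.1% upstream and 9.63% downstream. The midpoint of the peak was upstream of the TSS at 14 genes (58.3%) and downstream at 10 (41.7%), against 54.8% and 45.0% of all protein-coding genes with a peak. Their GC content had a median of 63.3% and ranged from 47.3% (*Atg13*) to 80.2% (*Lamp1*), beside a median of 63.5% over all genes with a peak. *Atg4b* was the only gene with more than 1 peak within 1000 bp of its TSSs, or 1 of 24, against 6.92% of all protein-coding genes with a peak.

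**Figure D2:**
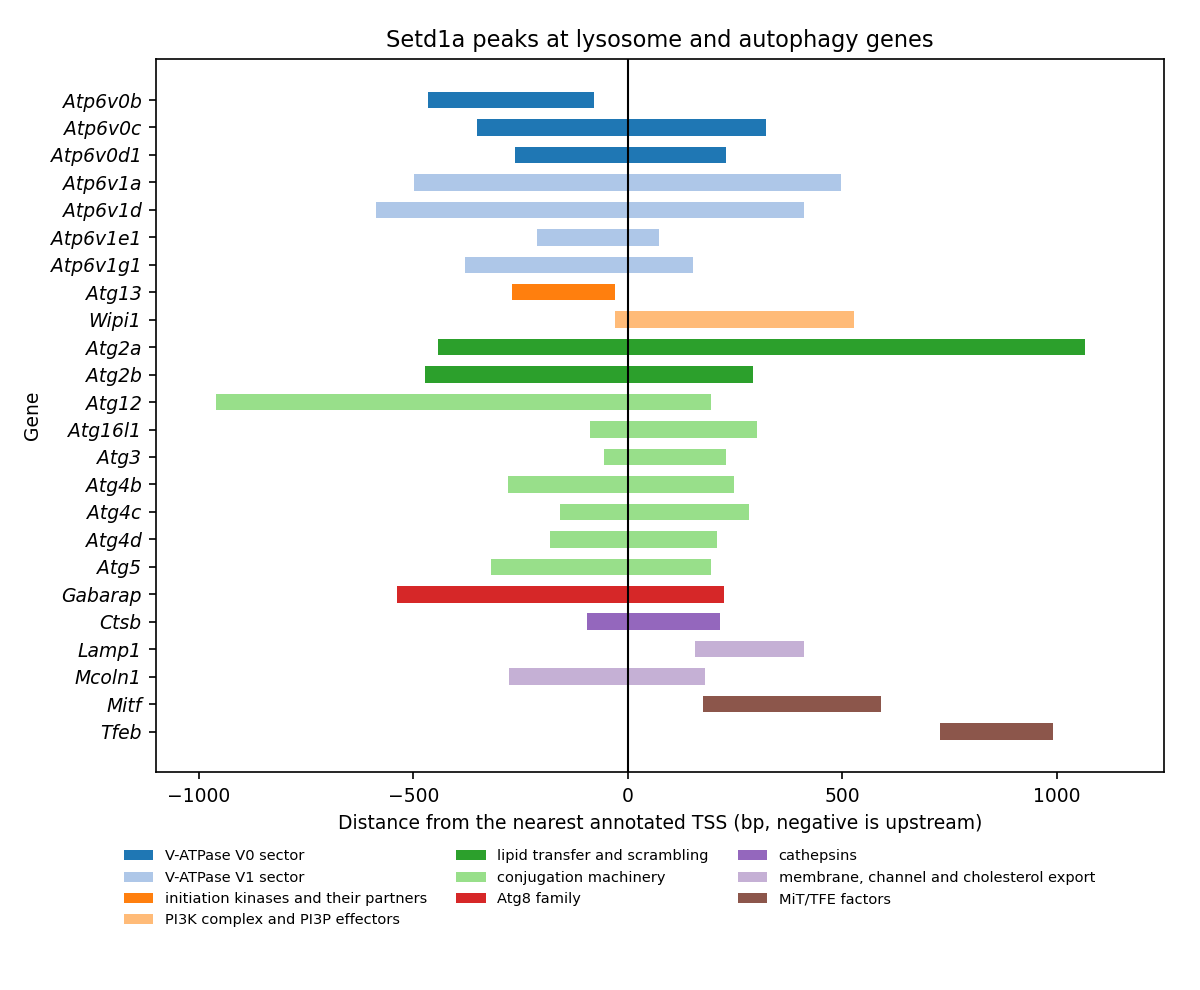
Each bar spans the Setd1a peak at 1 of the 24 genes, in bp from the nearest annotated TSS (vertical line, negative values upstream), drawn in the direction of transcription and coloured by role. 19 bars cross the TSS, those of *Atp6v0b* and *Atg13* end upstream of it, and those of *Lamp1*, *Mitf* and *Tfeb* begin 157, 175 and 727 bp downstream. Where a peak overlapped several TSSs, the TSS nearest its midpoint was used.

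Of the 22 V-ATPase subunit genes, 7 had a peak, or 31.8% (16.4% to 52.7%). The share over all protein-coding genes, 22.5%, lies inside this interval. In the V0 sector these were 3 of 9 genes. The peak at *Atp6v0c*, which encodes the proteolipid of the proton-carrying ring, was 674 bp wide (chr17:24169140-24169813) and reached from 352 bp upstream to 321 bp downstream of the TSS. At *Atp6v0d1*, whose product couples the ring to the central stalk, the peak (chr8:105565819-105566311) was 493 bp wide and centred 18 bp from the TSS. The peak at *Atp6v0b*, a second ring proteolipid, was 389 bp wide (chr4:117887412-117887800) and ended 79 bp upstream of the TSS. No peak was found at the genes of the a subunit (*Atp6v0a1*, *Atp6v0a2* and *Atp6v0a4*), at *Atp6v0d2*, or at *Atp6v0e* and *Atp6v0e2*, whose nearest peaks lay 30.0 kb (*Atp6v0a2*) to 208 kb (*Atp6v0d2*) away. *Atp6v0c* also had a peak of 435 bp near the other end of the gene (chr17:24163608-24164042), 2987 bp from a TSS.

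In the V1 sector 4 of 13 genes had a peak, beside 22.5% of all protein-coding genes, and in each of the 4 it overlapped a TSS. The widest were those at *Atp6v1d*, a rotor subunit, with 997 bp (chr12:78861229-78862225), and at *Atp6v1a*, which encodes the catalytic subunit, with 995 bp (chr16:44139135-44140129). Both were wider than 92.0% of all peaks in the list. The stator genes *Atp6v1g1* and *Atp6v1e1* had peaks of 532 bp (chr4:63544392-63544923) and 283 bp (chr6:120822468-120822750). The genes of the nucleotide-binding B subunit (*Atp6v1b1* and *Atp6v1b2*), those of the C, F and H subunits, and *Atp6v1e2*, *Atp6v1g2* and *Atp6v1g3* had none. *Atp6v1h* carried the only peak over the body of a gene that had none near a TSS, 320 bp wide and 5915 bp from its nearest TSS (chr1:5075933-5076252). The nearest annotated TSS to that interval was one of *Rgs20*.

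Several V-ATPase subunits exist as a broadly used form and a form known from few tissues such as kidney, osteoclasts or testis. The 6 genes listed here as tissue-restricted (*Atp6v0a4*, *Atp6v0d2*, *Atp6v1b1*, *Atp6v1c2*, *Atp6v1e2* and *Atp6v1g3*) had 0 peaks (0% to 39.0%). The other 16 subunit genes had 7, or 43.8% (23.1% to 66.8%), beside 22.5% of all protein-coding genes. All 7 were at CpG-rich genes, 3 of 4 in V0 and 4 of 7 in V1, beside 40.1% of all CpG-rich genes. All 6 restricted genes are CpG-poor, with ratios of 0.078 (*Atp6v1g3*) to 0.39 (*Atp6v1e2*), and 6.81% of all CpG-poor genes had a peak. A peak was present at *Atp6v0d1*, *Atp6v1e1* and *Atp6v1g1* but not their paralogs *Atp6v0d2*, *Atp6v1e2* and *Atp6v1g3*. Of the genes outside the list of 6 that have a paralog in it, *Atp6v0a1*, *Atp6v0a2*, *Atp6v1b2*, *Atp6v1c1* and *Atp6v1g2* had none either. *Atp6v1g2*, a CpG-poor stator gene, lay 4497 bp from a peak at *Ddx39b*. *Atp6v0a1* lay 51.7 kb and *Atp6v0a2* 30.0 kb from a peak, with CpG ratios of 0.72 and 0.52. *Atp6v1b2* lay 106 kb and *Atp6v1c1* 34.7 kb from a peak, although both had CpG-rich starts with ratios of 0.82 and 0.72. The part of CpG content in this contrast was not tested.

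The genes that start autophagy fall into a pair of roles with 1 peak in 4 genes each, beside 22.5% of all protein-coding genes. Of the 4 genes of the kinase complex, which receives nutrient signals, *Atg13* had a peak and *Ulk1*, *Ulk2* and *Atg101* did not, with nearest peaks 16134, 75032 and 37426 bp away. All 4 have CpG-rich starts, and the ratios of *Ulk1* and *Ulk2* were 0.90 and 0.93. The *Atg13* peak (chr2:91710606-91710846) was the narrowest of the group and lay 30 bp upstream of the TSS. Among the genes of the lipid kinase complex that makes phosphatidylinositol 3-phosphate and of the proteins that bind this lipid, *Wipi1* had a peak of 557 bp (chr11:109611440-109611996) that began 29 bp upstream and ended 527 bp downstream of the TSS. *Becn1* and *Atg14*, subunits of the complex, and *Wipi2*, which recruits the conjugation machinery, had none. Their nearest peaks were 122, 45.1 and 19.2 kb away.

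Membrane growth is served by Atg2, which transfers lipids, and Atg9, a lipid scramblase. Both *Atg2* genes had a peak and both *Atg9* genes had none, which is 2 of 4 genes beside 22.5% of all protein-coding genes. The *Atg2a* peak (chr19:6241226-6242732) was the widest of all 24, wider than 98.7% of the list, and extended 1064 bp into the gene. At *Atg2b* the peak was 766 bp wide (chr12:105684920-105685685). *Atg9a* had its nearest peak 17.0 kb away, and the peak 2.29 kb from *Atg9b* lay 29 bp from a TSS of the neighbouring gene *Abcb8*.

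In the conjugation machinery 7 of 10 genes had a peak, beside 22.5% of all protein-coding genes, and each of the 7 genes had it over a TSS. Of the 10 genes 9 are CpG-rich, and 6 of these had a peak, beside 40.1% of all CpG-rich genes. The peaks were found at *Atg3*, the E2-like enzyme that passes Atg8 proteins to lipid (284 bp, chr16:45158729-45159012), at *Atg5* (514 bp, chr10:44268039-44268552), *Atg12* (1154 bp) and *Atg16l1* (389 bp, chr1:87756004-87756392), whose products form the E3-like complex, and at the genes of the Atg4 proteases that process Atg8 proteins. Among the latter, *Atg4b* had peaks of 528 bp (chr1:93754708-93755235) and 340 bp (chr1:93753606-93753945), the second of them 960 bp from the nearest TSS. The peaks at *Atg4c* (chr4:99193990-99194428) and *Atg4d* (chr9:21265125-21265513) were 439 and 389 bp wide. No peak was found at *Atg7*, the E1-like enzyme upstream of both conjugation reactions, at *Atg10*, the E2-like enzyme for Atg12, or at *Atg16l2*, a paralog of *Atg16l1*. *Atg7* and *Atg10* were CpG-rich (0.72 and 0.70) and lay 19.0 and 202 kb from a peak.

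Of the 5 genes of the Atg8 proteins themselves, *Gabarap* alone had a peak, 762 bp wide (chr11:69991101-69991862), beside 22.5% of all protein-coding genes. *Map1lc3a*, *Map1lc3b*, *Gabarapl1* and *Gabarapl2* had none, although all 4 have CpG-rich starts with ratios of 0.66 to 0.90, and their nearest peaks lay 241, 4.65, 303 and 198 kb away. *Sqstm1*, which encodes the autophagy receptor p62, had its nearest peak 2180 bp upstream (chr11:50213007-50213345), and *Mgat4b* had the nearest TSS to that interval. Among the genes without a peak, *Sqstm1* was the closest to the limit of 1000 bp, followed by *Atg9b* at 2294 bp. *Tfeb*, at 727 bp, was the farthest inside it, followed by *Mitf* at 175 bp.

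**Figure D3:**
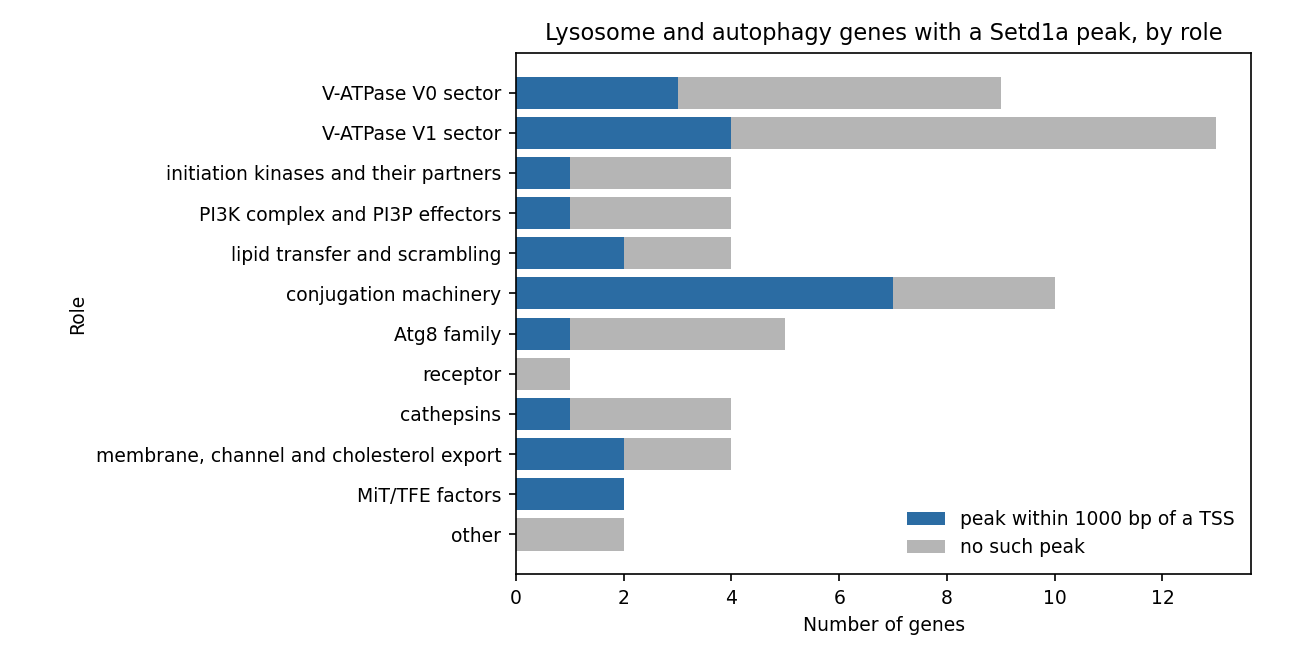
Bars give the number of the 62 genes in each role, split into genes with a Setd1a peak within 1000 bp of a TSS (blue) and genes without one (grey). The conjugation machinery had a peak at 7 of 10 genes, the V0 and V1 sectors at 3 of 9 and 4 of 13, and the Atg8 family at 1 of 5. Among all protein-coding genes the share was 22.5%.

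Lysosomal hydrolases and membrane proteins among the members had 3 peaks in 8 genes, beside 22.5% of all protein-coding genes. Of these 8, 3 of the 4 cathepsin genes and all 4 others are CpG-rich, and 40.1% of all CpG-rich genes had a peak. *Ctsb*, a cysteine cathepsin, had a peak of 312 bp over its start (chr14:63122418-63122729), whereas *Ctsa*, *Ctsd* and *Ctsl* were 27.4, 12.5 and 54.0 kb from a peak. *Mcoln1* encodes the lysosomal calcium channel, and its peak of 456 bp (chr8:3500180-3500635) reached from 277 bp upstream to 178 bp downstream of the TSS. *Lamp1*, an abundant membrane glycoprotein gene, had a peak of 253 bp that began 157 bp inside the gene (chr8:13159318-13159570). *Npc1* and *Npc2*, which export cholesterol from the lysosome, lay 293 and 20.7 kb from a peak. The 2 MiT/TFE genes are CpG-rich at the start of the gene record. Both had a peak, beside 40.1% of all CpG-rich genes, and neither peak overlapped a TSS. At *Mitf* the interval was 416 bp wide, 175 to 590 bp downstream of a TSS that lies 6 bp from the 5′ end of the gene (chr6:97807233-97807648). At *Tfeb* it was 265 bp wide (chr17:47759902-47760166), in an intron, 727 bp downstream of an internal TSS that lies 22145 bp from the 5′ end of the gene, and had a CpG ratio of 0.21, the lowest of the 24.

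At 7 of the 24 genes (29.2%) the peak was also within 1000 bp of the TSS of another protein-coding gene, against 29.7% of all protein-coding genes with a peak. All 7 neighbours are transcribed in the opposite direction. The TSSs are 79 bp apart at *Atg3* and *Slc35a5*, 124 bp at *Atg4b* and *Thap4*, 173 bp at *Atg2b* and *Gskip*, 181 bp at *Atp6v1d* and *Eif2s1*, 200 bp at *Atp6v1a* and *Naa50*, 276 bp at *Atg13* and *Harbi1*, and 296 bp at *Atg12* and *Ap3s1*. At *Atp6v0d1* a noncoding antisense gene, *Gm38250*, starts 277 bp away. These intervals cannot be given to 1 gene of the pair. When each peak was given only to the gene of the nearest TSS, *Atg12*, *Atg13* and *Atg2b* lost theirs to the neighbour and 21 genes were left (33.9%, against 18.3% of all genes). 14 of the 24 genes had a peak under every one of the 10 settings of window, TSS set, peak position, assignment and width, and *Tfeb* under 5 of them.

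The 38 genes without a peak were not next to one as a rule. Their nearest peak was at a median of 34.9 kb from a TSS (quartiles 16.4 and 118 kb, range 2.18 to 655 kb). Over all protein-coding genes without a peak the median was 89.5 kb (quartiles 30.3 and 274 kb). For the 38 genes it lay within 10 kb at 8 and beyond 100 kb at 11. In some cases the nearest peak overlapped a TSS of another gene, as for *Ulk2* (*Akap10*), *Atg10* (*Rps23*), *Map1lc3a* (*Acss2*), *Ulk1* (*Ep400*) and *Atg9a* (*Zfand2b*). Of the 38 genes, 21 had a CpG-rich start, beside 5882 of the 16125 protein-coding genes without a peak. *Atp6v1f*, a rotor subunit gene, and the adjacent *Atp6v1fnb* shared their nearest peak, 31.4 and 35.1 kb away.

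The E-box letters CACGTG, the core of the element bound by MiT/TFE factors, were searched on both strands in 300 bp around the start of the gene record (250 bp before to 50 bp after). They were present at 12 of the 62 genes, or 19.4% (11.4% to 30.9%), and at 7.82% of all protein-coding genes. The longer form TCACGTG, which contains the E-box, was present at 9 genes (14.5%) against 4.14%, and the extended palindrome of the element at none (0% to 5.83%) against 0.365%. Of the 12 genes with an E-box, 10 had a Setd1a peak, or 83.3% (55.2% to 95.3%). Over all protein-coding genes a peak was found at 32.3% of those with an E-box and at 21.7% of those without. Put the other way, an E-box was present at 10 of the 24 genes with a peak (41.7%) and at 2 of the 38 without (5.26%), and the shares over all protein-coding genes were 11.2% and 6.83%.

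The stretches that hold these E-boxes are shown because the counts above rest on them. Each runs 5′ to 3′ on the coding strand with 10 bases on either side, read from the GRCm38 (mm10) genome, and capitals mark CACGTG. The first 10 genes had a peak, and *Ctsd* and *Atp6v1c1* did not.
*Atg3* (chr16:45158725-45158773, plus strand): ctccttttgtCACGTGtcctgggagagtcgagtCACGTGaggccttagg
*Atg5* (chr10:44268315-44268340, plus strand): gagcgcttgcCACGTGgtcttggtga
*Atp6v0b* (chr4:117887332-117887375, minus strand): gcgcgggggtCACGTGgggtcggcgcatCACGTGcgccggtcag
*Atp6v0d1* (chr8:105566052-105566077, minus strand): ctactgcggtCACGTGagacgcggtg
*Atp6v1a* (chr16:44139888-44139913, minus strand): cgctcctccaCACGTGcactcgggac
*Ctsb* (chr14:63122432-63122457, plus strand): ggtcaagcatCACGTGacgaatcagc
*Gabarap* (chr11:69991010-69991035, plus strand): cgccacccgcCACGTGattctccgcc
*Lamp1* (chr8:13159090-13159161, plus strand): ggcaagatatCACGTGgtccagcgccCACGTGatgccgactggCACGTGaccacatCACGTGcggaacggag
*Mcoln1* (chr8:3500438-3500489, plus strand): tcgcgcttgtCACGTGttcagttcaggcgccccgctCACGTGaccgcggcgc
*Wipi1* (chr11:109611976-109612001, minus strand): aaaacaccacCACGTGgcctgctgcc
*Ctsd* (chr7:142388057-142388082, minus strand): ttccttccccCACGTGacctgtatcc
*Atp6v1c1* (chr15:38661929-38661954, plus strand): ctccggctggCACGTGacttgctctg

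*Lamp1* had 4 E-boxes, at 61 to 15 bp before the start of the gene record, and *Atg3*, *Atp6v0b* and *Mcoln1* had 2 each. The letters lay inside the Setd1a peak at *Atg3*, *Atg5*, *Atp6v0d1*, *Atp6v1a*, *Ctsb*, *Mcoln1* and *Wipi1*. This overlap was not compared with other genes. The window searched lies around the gene start, and 76.3% of all protein-coding genes with a peak had it over a TSS. At *Lamp1* all 4 E-boxes lay outside the peak, before the TSS, while the peak began after the TSS. At *Atp6v0b* the pair fell in the gap between the end of the peak and the TSS, and at *Gabarap* the E-box lay upstream of the peak. The 300 bp around the *Mcoln1* start (chr8:3500207-3500506, plus strand), all of which lie inside the peak, are shown as an example of a whole promoter, with its 2 E-boxes in capitals.
*Mcoln1*: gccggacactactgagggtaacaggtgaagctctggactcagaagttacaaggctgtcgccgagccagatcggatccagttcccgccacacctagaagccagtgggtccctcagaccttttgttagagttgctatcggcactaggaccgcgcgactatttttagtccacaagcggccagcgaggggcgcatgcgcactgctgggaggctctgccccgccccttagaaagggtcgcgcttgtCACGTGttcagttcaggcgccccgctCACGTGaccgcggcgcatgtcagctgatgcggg

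The difference between genes with and without a peak varied with the genes and the promoter windows used. Among CpG-rich genes alone it was 9 of 22 against 2 of 21 (40.9% and 9.52%), beside 12.0% and 10.6% of all CpG-rich genes. In 1000 bp around the start it was 13 of 24 against 7 of 38 (54.2% and 18.4%), beside 23.1% and 15.6% of all genes. In the RefSeq promoters of the same length it shrank to 7 of 20 against 6 of 29 (35.0% and 20.7%), beside 13.0% and 8.04% of all genes. These are 58 promoters of 49 of the 62 genes, so the genes changed as well as the place searched. A match of letters is no evidence of binding by a factor.

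**Figure D4:**
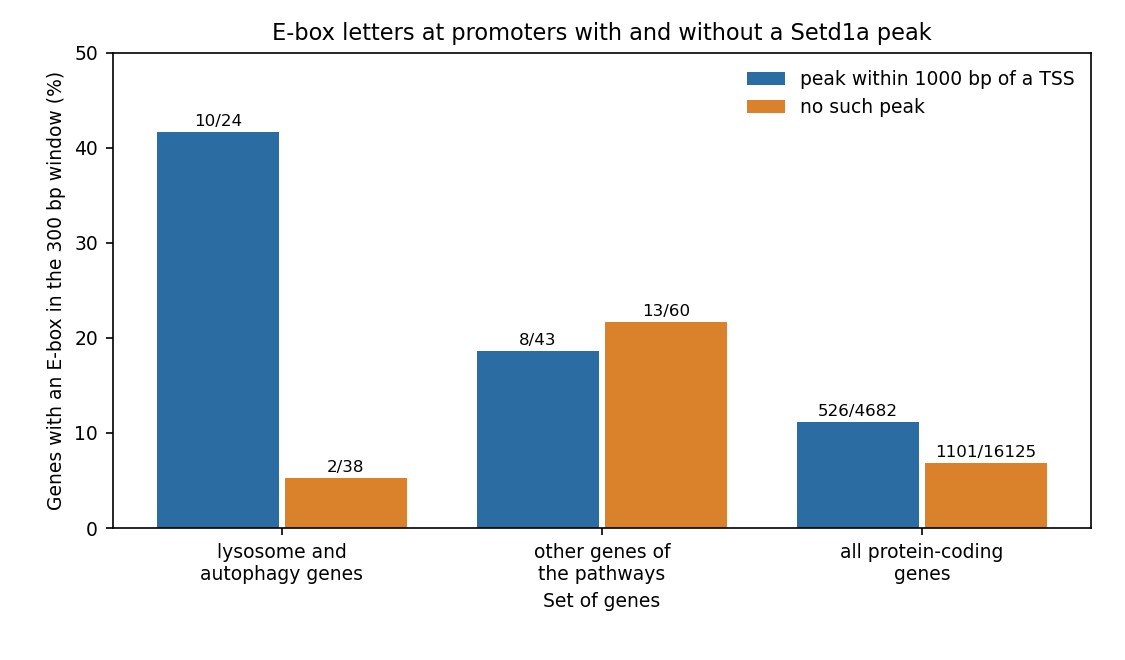
Bars give the percentage of genes with the E-box letters in 300 bp around the gene start, for genes with a Setd1a peak within 1000 bp of a TSS (blue) and without one (orange), and the fractions above them are gene counts. The shares were 41.7% and 5.26% in the 62 lysosome and autophagy genes, 18.6% and 21.7% in the 103 other genes of the pathways, and 11.2% and 6.83% in all protein-coding genes.

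A list of 103 other genes of the lysosome and of autophagy was examined beside the 62, and 43 of them had a peak, or 41.7% (32.7% to 51.4%), beside 22.5% of all protein-coding genes. Within their 68 CpG-rich genes the share was 47.1%, beside 40.1% of all CpG-rich genes. By role, with the same overall shares as reference and no test, a peak was found at 16 of 35 lysosomal enzymes and activators, 8 of 18 genes of nutrient sensing at the lysosome, 6 of 15 membrane proteins, 5 of 8 autophagy receptors, 4 of 14 fusion genes, 2 of 7 initiation genes and 2 of 6 genes of other regulators. Among the nutrient sensing genes, peaks lay over the TSS of *Mtor*, the kinase that restrains autophagy (1036 bp wide), and of *Flcn*, which acts on Tfeb and Tfe3 through Rag GTPases (1154 bp). Unlike *Sqstm1*, the receptor gene *Nbr1* had a peak, 1120 bp wide, which also lay at the start of a neighbouring gene. *Rab7*, which directs fusion with the lysosome, had a peak of 348 bp. In these 103 genes an E-box was present at 21 (20.4%). It was found at 8 of the 43 genes with a peak (18.6%) and at 13 of the 60 without (21.7%).

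Among the enzyme genes, peaks also lay at CpG-poor starts. Of the 35 enzymes and activators, 18 had no TSS in a CpG-rich window, and 8 of these 18 (44.4%) had a peak, beside 0 of the 9 such genes among the 62, and the share over all genes of this kind was 3.56%. The 8 genes were *Tpp1*, *Smpd1*, *Lipa*, *Ctso*, *Neu1*, *Manba*, *Sgsh* and *Galns*, with peaks of 366 to 570 bp. At 6 of them no other protein-coding gene had a TSS within 1000 bp of the peak, and at *Sgsh* and *Galns* the neighbours *Slc26a11* and *Trappc2l* did. Taken at the TSS where it was highest, the CpG ratio of the 8 genes ran from 0.345 to 0.598. *Manba* (0.598), *Galns* (0.591) and *Sgsh* (0.581) lay just under the limit of 0.6. *Tpp1*, a lysosomal peptidase, had the lowest CpG ratio (0.35 at its highest TSS) and a peak of 570 bp over a TSS (chr7:105751706-105752275). The difference between the lists was not tested.

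A peak lay within 1000 bp of a TSS of the neural stem cell markers *Sox2*, *Nes*, *Gfap* and *Pax6*, but not of *Hopx* or *Slc1a3*. Of 7 markers of neurons, oligodendrocytes, microglia, endothelium and red cells, 0 had one, beside 22.5% of all protein-coding genes. The list gives positions and no expression, and the markers were not compared within CpG classes. These counts therefore describe binding at the marker genes only and cannot check the labelled cell type.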

How the data were processed

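Per the labels and the methods of the study, the authors trimmed reads (Trimmomatic 0.32), mapped them uniquely to mm10 (Bowtie2 2.1.0), removed reads of low mapping quality (SAMtools 0.1.18), called peaks per replicate with MACS2 2.2.8 at default parameters and kept intervals found in both replicates. The deposited values are other than counts or signal, namely a chromosome name and a first and last position in bp for every peak, read here as 1-based. How intervals were joined, and whether IgG served as control in peak calling, is not given in the sources used here.

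TSSs came from GENCODE M21, and sequence from GRCm38.p6, whose chromosomes held all 6950 peaks on chromosomes 1 to 19, X and Y. The distance ran from a TSS to the nearer peak edge. Python 3.11.15, numpy 2.4.6, scipy 1.17.1, pysam 0.24.0, samtools 1.23.1 and matplotlib 3.10.9 were used. On simulated intervals, 600 of 600 genes received the right distance. RefSeq promoters matched 49 of the 62 genes by symbol. With 1 combined list no test across samples was possible, and no list was tested for enrichment. Every gene of the rule was named, and values were given by role, width and distance. The members and lists were chosen with earlier results of these data known. Alternatives covered window, TSS set, assignment, width, CpG class and motif. 1 gene of the neural stem cell marker list is not reported here.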

Additional observations from a re-analysis of the deposited data

How the results depend on the processing

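The share of lysosome and autophagy genes with a peak was 30.6% to 42.9% over the 12 alternatives, each within the confidence interval of the reported 38.7%, and was above the share of all protein-coding genes in each. It was lowest with peaks that overlap a TSS and with peaks of at least 300 bp (19 genes each). The setting without *Atp6v1fnb* and *Atg4a-ps* (40.0%), the RefSeq promoters (26.5%), the E-box share among CpG-rich genes (25.6%) and the CpG class by the highest ratio of any TSS (45.3%) were chosen after seeing the data. The median distance from TSS to peak was 0 bp from the nearer edge and 90 bp from the midpoint. An E-box was present at 32.3% of the genes in 1000 bp, against 19.4% in 300 bp. In these 2 cases the alternative's own construction moves the value, since a midpoint is farther than an edge and a longer window holds more letters. Limits: the replicates are merged in 1 list, so neither could be left out, and the depth that would set how many promoters could be found is unknown. No paired analysis was possible because the peaks are given without columns for the replicates.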
